A study of Mus musculus with 6 samples.

Results

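The genes described here make the lysosome of macrophages: the subunits of its proton pump, its hydrolases, its membrane proteins, and the transcription factors that set their expression. A list of 40 such genes was looked up among the probe sets whose platform annotation names a single gene. Of these, 38 were found, out of 18193 genes named on the array, and Atp6v0c and Cd63 are not analysed here. A gene measured by several probe sets was read from the brightest, by its mean of all 6 arrays, and all 38 passed the filter on low values. The macrophages were grown from bone marrow, 3 samples from vimentin-deficient mice and 3 from their wild-type littermates, each named a biological replicate and hybridised to its own array. Vimentin forms intermediate filaments in leukocytes and connective tissue cells. Both genotypes had a C57BL/6 background, an age of 17 weeks and a chow diet, and no further allele is given. All marrow was grown at normal oxygen in high-glucose medium with conditioned medium of the CMG14-12 line, which supplies macrophage colony-stimulating factor. The series design names transplanted marrow in atherosclerosis-prone mice, whereas these cells were cultured, so they stand for marrow progenitors matured in a dish.

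Lysosomes break down what macrophages take up by endocytosis and phagocytosis, together with the cell's own worn parts. The V-ATPase, a rotary pump with a membrane sector (V0) and a cytosolic sector (V1), acidifies them so that the hydrolases can work. The transcription factors TFEB, TFE3 and MITF bind an E-box within the CLEAR element of many lysosomal promoters and are held in the cytosol while mTORC1 is active on the lysosomal surface. In foam cells of atherosclerotic plaques, lysosomal acid lipase and the NPC proteins release cholesterol from lipoproteins that were taken up.

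That E-box was searched as TCACGTG on both strands in the RefSeq promoter windows (build GRCm38.p6, 250 bases before to 50 after each start). Of the 32 members with a window, 11 held it, which is 34.4%. It was held by 5.80% of 14452 genes on the array with a window and by 3.77% of all 32851 windows. The element is known from lysosomal promoters, so a larger share among such genes could be foreseen. The shorter CACGTG, which lies within TCACGTG, was held by 12 of the 32, which is 37.5%, against 10.2% of the genes on the array. Lamp1 had 4 such sites, and Atp6v0b, Ctsa, Ctsd, Gla and Mcoln1 had 2 each. The stretches around the site are shown for the 3 members that hold it and whose array values are given below, with the site in capitals and the gene's own strand read 5′ to 3′.
Lgmn, chr12:102439112-102439166, minus strand, site 50 bases before the start: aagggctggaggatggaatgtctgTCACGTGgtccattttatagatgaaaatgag
Naglu, chr11:101069996-101070050, plus strand, site 74 bases before the start: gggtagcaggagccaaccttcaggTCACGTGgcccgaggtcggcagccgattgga
Atp6v0d1, chr8:105566037-105566092, minus strand, site 4 bases before the start, where the match reads on both strands: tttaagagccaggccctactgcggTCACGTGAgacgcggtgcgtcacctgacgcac
Distances are counted to the first base of the site, so the Atp6v0d1 site reaches across the start. The match describes these letters and does not show that a factor binds there. The 11 members with the site had a median log2 fold change of -0.09 between the genotypes and the 21 members whose windows lack it -0.08. Without vimentin-deficient replicate 3 the medians were -0.14 and -0.11.

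Before the values of single genes, 1 array has to be set apart. Vim, the check of the genotype, had a log2 value of 13.32 ± 0.09 (SD, n = 3) on the wild-type arrays and of 7.43 ± 0.67 (SD, n = 3) on those lacking vimentin, all 3 of them lower (-5.89, SE 0.31, limma adjusted p = 0.00414). Over all probe sets, Pearson's r of vimentin-deficient replicate 3 with each other array was 0.975 to 0.979, and r among the remaining 5 was 0.992 to 0.998. The median of 11 tested proliferation genes, relative to their wild-type mean on the log2 scale, was 0.50, 0.25 and -2.47 on vimentin-deficient replicates 1, 2 and 3 and 0.27, -0.32 and 0.05 on wild-type replicates 1, 2 and 3. That of 5 tested MHC class II genes was -0.33, 0.04 and 3.25 on the vimentin-deficient arrays. Their part in the lysosomal values was not tested, and the main results are given both with and without replicate 3. The 3′ minus 5′ difference of the Tfrc control probe sets was 1.39, 1.44 and 1.36 in vimentin-deficient samples against 1.49, 1.56 and 1.52 in wild-type ones, so it was lower throughout the vimentin-deficient group. That of Pcx was 0.80, 0.86 and 0.61 against 0.75, 0.66 and 0.69. For Gapdh it ran from -0.02 to 0.01 and for beta-actin from 0.18 to 0.23 over the 6 arrays, and the genotypes overlapped for both. The part of these controls in the results was not tested. Of 7 tested macrophage genes, 4 had a lower mean in each fit. Without replicate 3, Mertk was at -0.46, Adgre1 at -0.25, Sirpa at -0.19 and Csf1r at -0.14, and 0 of these passed. Itgam at 0.20 and Fcgr1 at 0.15 had higher means in that fit and did not pass either. Cd14 was at 0.75 with 6 arrays (limma adjusted p = 0.249) and rose without replicate 3 (0.59, limma adjusted p = 0.00201). Among markers of other marrow cells, the summed level of 5 B cell genes was 9.21 to 9.36 in vimentin-deficient and 9.28 to 9.30 in wild-type samples, of 7 neutrophil genes 9.97 to 10.12 and 10.08 to 10.13, and of 7 dendritic cell genes 9.77 to 9.89 and 9.84 to 9.95. The summed level of 10 osteoclast genes was 12.20 to 12.77 in vimentin-deficient samples and higher in every wild-type sample, at up to 13.01. Atp6v0d2, a V-ATPase subunit gene, is the brightest of that list. Of the 8 tested genes of the list, 5 had a higher mean with 6 arrays (median 0.04) and 2 without replicate 3 (median -0.07). The summed level of 6 erythroid and megakaryocyte genes was 10.13 to 11.47 and 11.36 to 11.72. Its lowest value was on replicate 3, where Pf4 read 8.45 (10.78 to 11.31 on the others). The part of these lists in the results was not tested. The osteoclast fusion gene Dcstamp read 6.96 to 7.07, near the filter value of 6.93. In such bulk samples, fewer cells of a type and less RNA per cell cannot be told apart.

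Most lysosomal genes read slightly lower in vimentin-deficient macrophages, and none of them passed the adjusted threshold with 6 arrays. Of the 38 members, 31 had a lower mean, where 60.4% of all tested genes did. Their median log2 fold change was -0.08, against -0.02 over the 13445 genes tested. With limma and Benjamini-Hochberg adjustment 0 members passed, and 0.0223% of all genes did. Before adjustment, limma gave p under 0.05 to 5 members with a lower and 0 with a higher mean, where 4.96% of all genes were lower and 3.01% higher. For 8 members all 3 vimentin-deficient arrays lay below all 3 wild-type arrays (10.1% of all genes), and for 0 they lay above (5.32%). The log2 fold changes of the members ran from -0.38 to 0.17. Of the 38, 23 were smaller than the range of the 3 wild-type arrays of the same gene, and 17 were without vimentin-deficient replicate 3. This was not counted over all genes.

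Without vimentin-deficient replicate 3, 3 members fell and 0 rose, namely Ctsh, Lgmn and Tfeb (limma adjusted p below 0.05, 2 arrays against 3), where 2.34% of all genes passed, 1.03% lower and 1.31% higher. Before adjustment, p was under 0.05 for 12 lower members (7.1% of all genes) and 0 higher ones (7.11%). In that fit 32 members had a lower mean (55.5% of all genes), and the median log2 fold change was -0.12, against -0.01 over all genes. Both vimentin-deficient arrays lay below all wild-type arrays for 23 members (17.3% of all genes) and above them for 1 (11.9%). Measured array by array against the wild-type mean, the median member stood at -0.08 and -0.13 on vimentin-deficient replicates 1 and 2, at 0.01 on replicate 3, and at -0.04, 0.02 and 0.02 on the wild-type arrays. Below that mean lay 27, 34 and 18 of the members on vimentin-deficient replicates 1, 2 and 3, and 29, 12 and 13 on wild-type replicates 1, 2 and 3. Of all genes, 56.3%, 53.1% and 62.1% lay below it on the vimentin-deficient arrays and 53.0%, 50.6% and 45.5% on the wild-type arrays. The median over all genes ran from -0.04 on vimentin-deficient replicate 3 to 0.01 on wild-type replicate 3. Each wild-type array is part of the wild-type mean, which makes its own distance from that mean smaller. Even so, against 27 members on vimentin-deficient replicate 1, 29 were lower on wild-type replicate 1. Leaving it out as well raised the number of members that fell to 9, leaving out wild-type replicate 2 as well gave 1, and leaving out wild-type replicate 3 or vimentin-deficient replicate 1 or 2 as well gave 0.

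**Figure D1:**
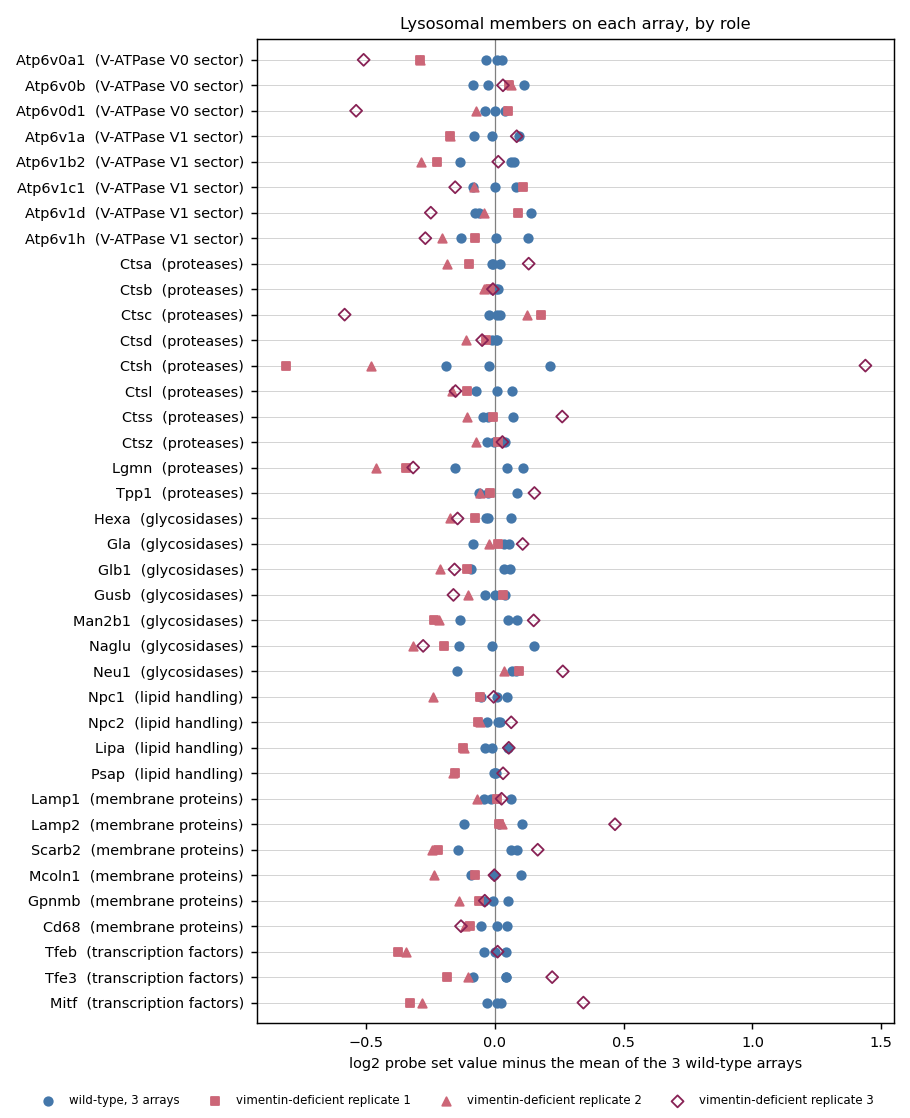
Log2 probe set value of each of the 38 members on each array, minus the mean of the 3 wild-type arrays (circles are wild-type arrays, filled squares and triangles vimentin-deficient replicates 1 and 2, open diamonds replicate 3). Most squares and triangles lie left of 0, while open diamonds lie on both sides, farthest right for Ctsh and farthest left for Ctsc and Atp6v0d1.

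**Figure D2:**
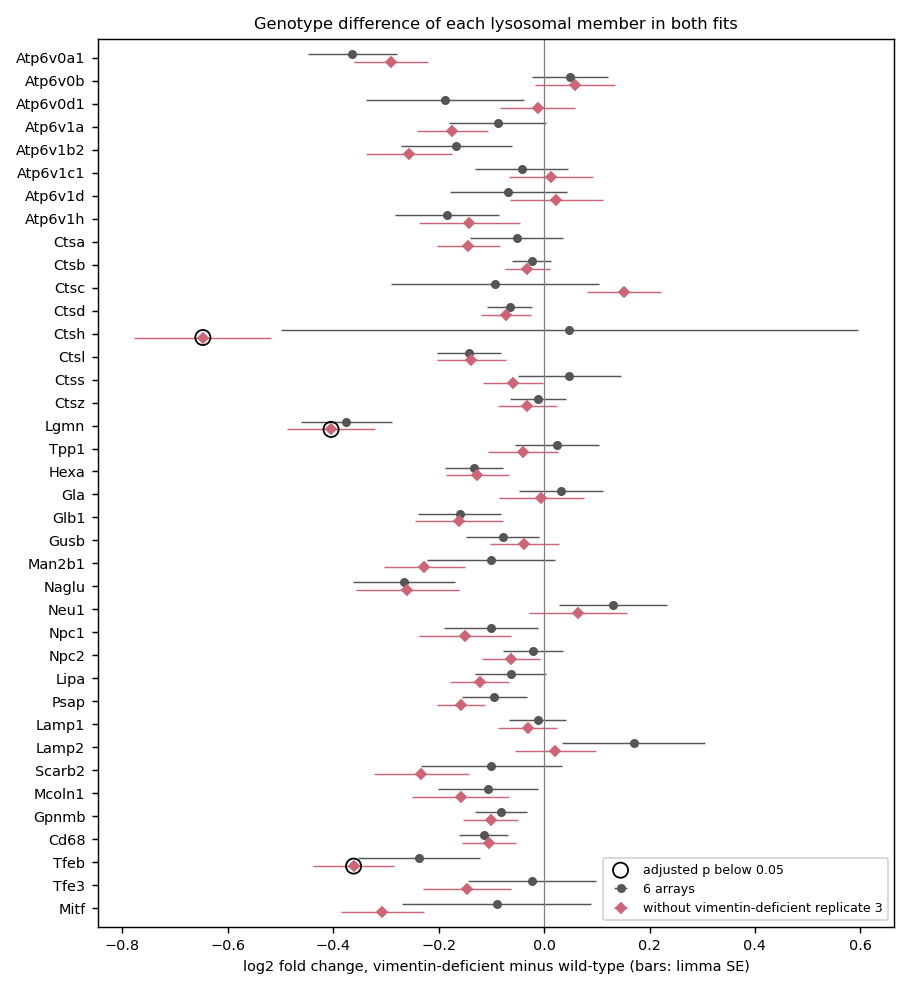
Log2 fold change of each member, vimentin-deficient minus wild-type, with the limma standard error as a bar, for 6 arrays (circles) and without vimentin-deficient replicate 3 (diamonds). Ringed diamonds mark Ctsh, Lgmn and Tfeb, the 3 members with an adjusted p below 0.05 without that array, and 0 circles passed.

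The transcription factors of the lysosomal programme were lower on 2 vimentin-deficient arrays and not on the third. Tfeb, a main activator of lysosome formation and autophagy, read 9.12, 9.15 and 9.50 on vimentin-deficient replicates 1, 2 and 3 and 9.45, 9.49 and 9.53 on wild-type replicates 1, 2 and 3. Replicates 1 and 2 lay below every wild-type array, and replicate 3 lay among them. With 6 arrays its log2 fold change was -0.24 (SE 0.12, limma adjusted p = 0.661), and without replicate 3 it fell, at -0.36 (SE 0.08, 1.28-fold, limma adjusted p = 0.0375). Mitf, the factor of the same family known from osteoclasts and pigment cells, read 9.92, 9.96 and 10.59 against 10.25, 10.22 and 10.27. Again 2 arrays lay below the wild-type arrays, but replicate 3 lay above them all. Its log2 fold change was -0.09 (SE 0.18) with 6 arrays and -0.31 (SE 0.08, limma adjusted p = 0.0777) without replicate 3. A second Mitf probe set read 7.44, 7.37 and 7.96 against 7.56, 7.56 and 7.57, again with replicates 1 and 2 below and replicate 3 above the wild-type arrays. Tfe3, which shares the DNA site of TFEB, read 10.00, 10.08 and 10.40 against 10.10, 10.23 and 10.22, with replicates 1 and 2 below and replicate 3 above the wild-type arrays, and did not pass in either fit (-0.02, SE 0.12, and -0.15, SE 0.08, on the log2 scale). The fall of Tfeb held in 1 of the 5 fits that also left out a further array, the one without wild-type replicate 1, with limma adjusted p from 0.00873 to 0.304. When every probe set was tested by itself, its adjusted p was 0.0548.

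**Figure D3:**
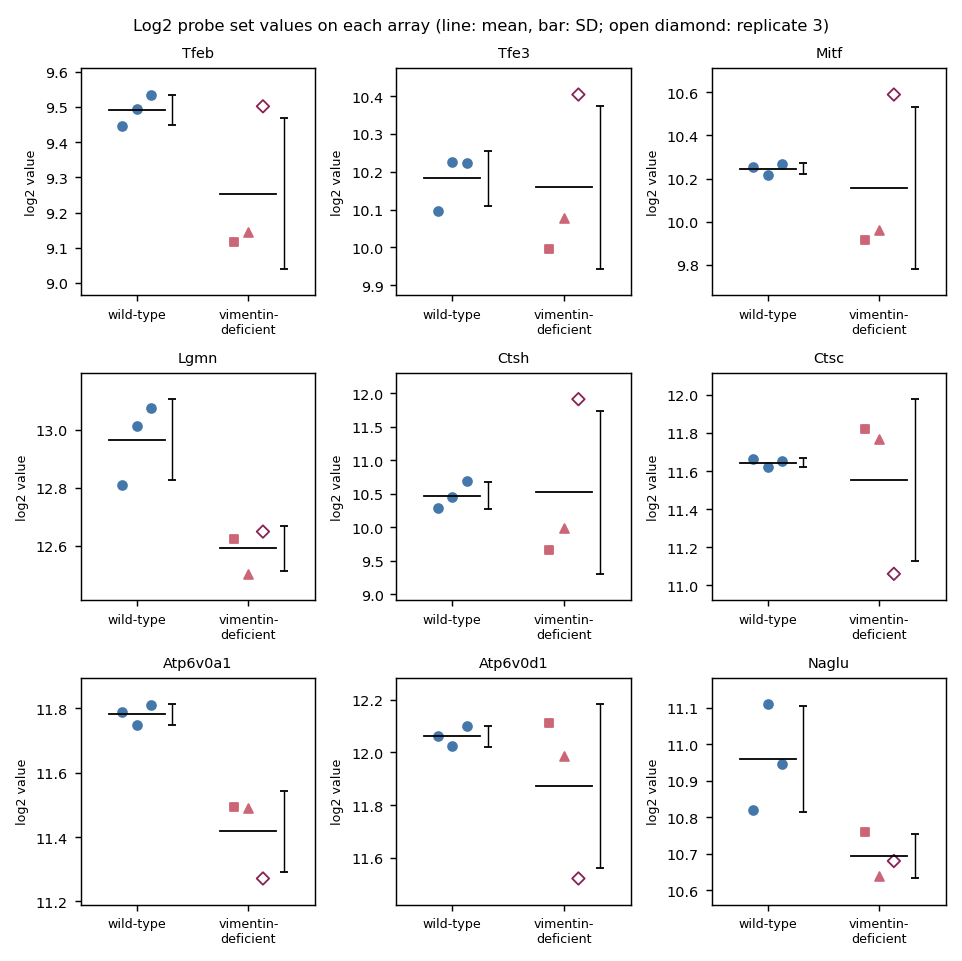
Log2 probe set values of 9 members on each array, by genotype, with the mean as a line and the SD (n = 3) as a bar; the open diamond is vimentin-deficient replicate 3, and each panel has its own axis that does not start at 0. Lgmn, Atp6v0a1 and Naglu have all 3 vimentin-deficient arrays below the wild-type arrays, while for Tfeb, Tfe3, Mitf and Ctsh the diamond lies above both remaining vimentin-deficient arrays.

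In the membrane sector of the proton pump, 1 of 3 members was lower on every vimentin-deficient array. Atp6v0a1, the a1 isoform of the subunit that forms the proton path, read 11.49, 11.49 and 11.27 in vimentin-deficient and 11.79, 11.75 and 11.81 in wild-type samples, with no overlap. Its log2 fold change was -0.36 (SE 0.08, 95% interval -0.56 to -0.16, 1.29-fold lower, limma adjusted p = 0.338) and -0.29 (SE 0.07, limma adjusted p = 0.0625) without replicate 3. Of its 3 other probe sets, 2 had log2 fold changes of -0.27 and -0.41, and the dimmest had -0.11. Atp6v0d1, the d1 isoform of the stalk subunit that links both sectors, read 12.11, 11.99 and 11.52 against 12.06, 12.02 and 12.10. Replicates 2 and 3 lay below the wild-type arrays, replicate 3 by far more, and replicate 1 above them. The genotype difference on the log2 scale, -0.19 (SE 0.15, limma adjusted p = 0.791) with 6 arrays, was -0.01 (SE 0.07, 95% interval -0.17 to 0.15) without it. Atp6v0b, a proteolipid of the rotor ring, had a log2 fold change of 0.05 with 6 arrays and 0.06 without replicate 3.

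In the cytosolic sector all 5 members had a lower mean with 6 arrays, with log2 fold changes from -0.18 to -0.04, and 0 passed. Atp6v1b2, the nucleotide-binding B2 subunit, read 11.85, 11.79 and 12.09 against 12.15, 11.94 and 12.14. Replicates 1 and 2 lay below the wild-type arrays and replicate 3 among them, a difference of -0.17 on the log2 scale (SE 0.10, limma adjusted p = 0.733) that was -0.26 (limma adjusted p = 0.163) without replicate 3. Atp6v1h, a regulatory subunit, read 10.48, 10.35 and 10.29 against 10.69, 10.42 and 10.56, and its groups overlapped, at -0.18 with 6 arrays and -0.14 without replicate 3. Atp6v1a, the catalytic subunit, had -0.09 (SE 0.09) with 6 arrays and -0.17 (SE 0.07, limma adjusted p = 0.26) without replicate 3. Its second probe set had 0.02 and -0.03. Atp6v1c1 and Atp6v1d, subunits of the stalks, had -0.04 and -0.07 with 6 arrays and 0.01 and 0.02 without replicate 3.

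Among the 10 proteases, legumain was lower on every vimentin-deficient array. Lgmn, the asparagine-specific endopeptidase that also matures cathepsins, read 12.62, 12.50 and 12.65 in vimentin-deficient and 12.81, 13.01 and 13.08 in wild-type samples. All 3 vimentin-deficient arrays, replicate 3 included, lay below all wild-type arrays. The log2 fold change was -0.38 (SE 0.09, 95% interval -0.58 to -0.17, 1.30-fold lower, limma adjusted p = 0.331) with 6 arrays. Without replicate 3 Lgmn fell, at -0.40 (SE 0.08, 1.32-fold, limma adjusted p = 0.0309). That fall held in 1 of the 5 fits without a further array, the one without wild-type replicate 1, and the limma adjusted p ran from 0.000152 to 0.248, with log2 fold changes between -0.48 and -0.34.

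Cathepsin H, an aminopeptidase, varied more than any other member. Ctsh read 9.66, 9.99 and 11.91 on vimentin-deficient replicates 1, 2 and 3 and 10.28, 10.45 and 10.69 on the wild-type arrays. Replicates 1 and 2 lay below and replicate 3 above every wild-type array, 2.09 above the mean of replicates 1 and 2 on the log2 scale. With 6 arrays the log2 fold change was 0.05 (SE 0.55, limma adjusted p = 0.99), and without replicate 3 Ctsh fell, at -0.65 (SE 0.13, 1.57-fold, limma adjusted p = 0.0277). Its other probe set read 8.63, 8.80 and 10.75 against 9.13, 9.30 and 9.33, and fell as well without replicate 3 (-0.53, limma adjusted p = 0.0185 with every probe set tested). The fall held in 2 of the 5 fits without a further array, those without wild-type replicate 1 or 2, with limma adjusted p from 0.000295 to 0.369.

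Cathepsin C, which activates granule proteases, ran the other way on the same arrays. Ctsc read 11.82, 11.77 and 11.06 against 11.66, 11.62 and 11.65. Replicates 1 and 2 lay above and replicate 3 below the wild-type arrays, so that the log2 fold change was -0.09 (SE 0.20) with 6 arrays and 0.15 (SE 0.07, limma adjusted p = 0.363) without replicate 3. Ctsl, the endopeptidase cathepsin L, read 12.70, 12.64 and 12.66 against 12.74, 12.88 and 12.82, without overlap, at -0.14 (SE 0.06, limma adjusted p = 0.625), and -0.14 without replicate 3 as well. Ctsd, the aspartic protease cathepsin D, was without overlap too, at -0.07 in both fits. For Ctsa, Ctsb, Ctss, Ctsz and Tpp1 the log2 fold changes with 6 arrays lay between -0.05 and 0.05, and the widest of their 95% intervals, that of Ctss, ran from -0.18 to 0.28. Without replicate 3 they were -0.14, -0.03, -0.06, -0.03 and -0.04 in that order, so Ctss and Tpp1 changed sign.

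For 24 members several probe sets passed the filter. Signs of the log2 fold change differed among them for 13 members with 6 arrays and 10 without replicate 3. With 6 arrays these were Atp6v1a, Atp6v1b2, Ctsb, Gla, Gpnmb, Lamp2, Lipa, Man2b1, Mcoln1, Mitf, Neu1, Scarb2 and Tpp1. For Ctsb, the cysteine protease cathepsin B, the size of the difference also depended on the probe set. The 2 brightest read 14.16 to 14.24 on all 6 arrays, where the highest value of any probe set on these arrays was 14.50, and had log2 fold changes of -0.02 and -0.03. The next read 13.13, 13.12 and 13.20 in vimentin-deficient and 13.32, 13.48 and 13.44 in wild-type samples, without overlap. It had -0.27 (SE 0.06, limma adjusted p = 0.389 with every probe set tested) with 6 arrays and fell without replicate 3 (-0.29, limma adjusted p = 0.0491). The one after it in brightness read 12.24, 12.26 and 11.08 against 12.49, 12.73 and 12.71, and fell without replicate 3 (-0.39, limma adjusted p = 0.0437). The dimmest read 7.74, 7.88 and 9.02 against 7.90, 7.87 and 7.84, so replicate 3 was low on one probe set of the gene and high on another. Where on the transcript each probe set lies was not analysed here. Of the 79 member probe sets above the filter, 5 fell and 0 rose without replicate 3 when each was tested by itself (0.761% of all probe sets fell and 1.03% rose): both of Ctsh, the pair of Ctsb just described, and that of Lgmn. This test of every probe set was added after the values had been seen. With 6 arrays 0 of the 79 passed, where 0.0217% of all probe sets fell and 0 rose. A lower mean was read on 58 of the 79 with 6 arrays and on 60 without replicate 3.

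**Figure D4:**
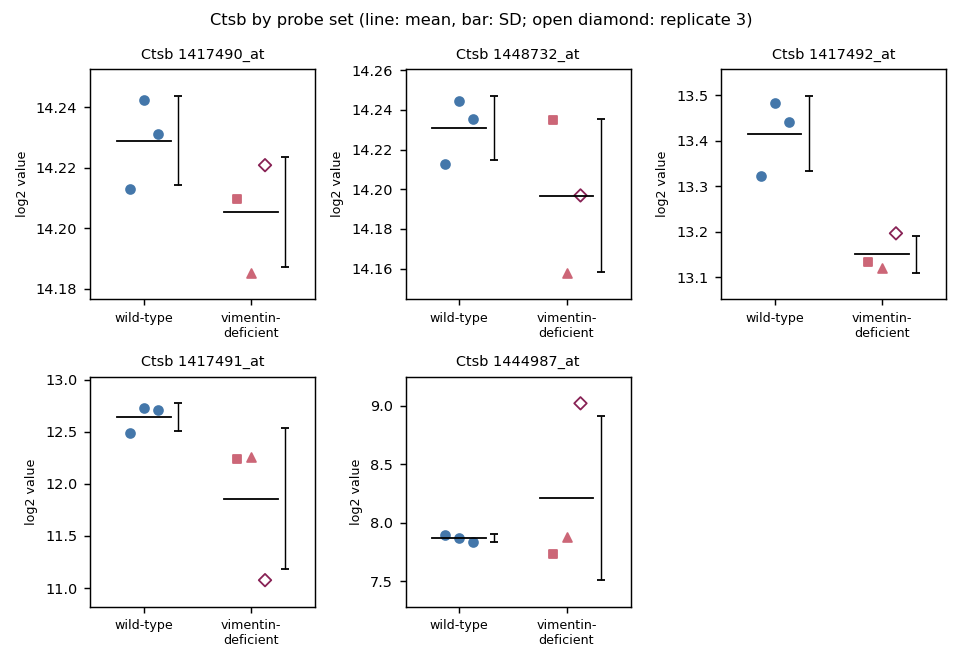
Log2 values of the 5 Ctsb probe sets on each array, by genotype, with the mean as a line and the SD (n = 3) as a bar; the open diamond is vimentin-deficient replicate 3, and each panel has its own axis that does not start at 0. The 2 brightest span less than 0.1 on the log2 scale, the third has all vimentin-deficient arrays below the wild-type arrays, and on the 2 dimmest replicate 3 lies far from the rest in opposite directions.

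Of the 7 glycosidases, which strip sugars from glycoproteins, glycolipids and glycosaminoglycans, 5 had a lower mean and 0 passed in either fit. Naglu, which acts on heparan sulfate, read 10.76, 10.64 and 10.68 against 10.82, 11.11 and 10.95. The groups did not overlap, though wild-type replicate 1 lay close to the vimentin-deficient arrays. The log2 fold change was -0.27 (SE 0.10, limma adjusted p = 0.573) and, without replicate 3, -0.26 (limma adjusted p = 0.246). Hexa, the alpha subunit of beta-hexosaminidase, read 13.27, 13.17 and 13.21 against 13.32, 13.41 and 13.32, without overlap, at -0.13 (SE 0.06, limma adjusted p = 0.623), and -0.13 without replicate 3. Glb1, the acid beta-galactosidase, had -0.16 in both fits, also without overlap. Man2b1, the acid alpha-mannosidase, had -0.10 (SE 0.12) and, without replicate 3, -0.23 (SE 0.08, limma adjusted p = 0.193). Gusb, the beta-glucuronidase, had -0.08 with 6 arrays and -0.04 without replicate 3. Neu1, the sialidase, had 0.13 and 0.06, and Gla, the alpha-galactosidase, 0.03 and -0.01.

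The 4 genes that handle lipids in the lysosome had log2 fold changes from -0.10 to -0.02 with 6 arrays and from -0.16 to -0.06 without replicate 3, and 0 passed. Psap, the precursor of the saposins that present sphingolipids to their hydrolases, read 13.77, 13.76 and 13.95 against 13.92, 13.92 and 13.92. The wild-type arrays were nearly the same, replicates 1 and 2 lay below them and replicate 3 above. The log2 fold change was -0.09 (SE 0.06) with 6 arrays and -0.16 (SE 0.05, limma adjusted p = 0.12) without replicate 3. A second Psap probe set had -0.12 and -0.19. Npc1, the membrane protein that passes cholesterol out of the lysosome, read 10.33, 10.16 and 10.39 against 10.34, 10.40 and 10.44, at -0.10 (SE 0.09, 95% interval -0.31 to 0.11), and -0.15 without replicate 3. Npc2, which hands cholesterol to it, had -0.02 and, without replicate 3, -0.06. Lipa, the acid lipase that frees cholesterol from its esters, had -0.06 (SE 0.07, 95% interval -0.22 to 0.10) on its brightest probe set and -0.19 and 0.08 on the other two. Without replicate 3 these were -0.12, -0.22 and 0.02.

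The 6 membrane proteins had a median log2 fold change of -0.09 with 6 arrays and -0.10 without replicate 3, and did not pass in either fit. Cd68, the macrophage sialomucin, read 13.63, 13.62 and 13.60 against 13.68, 13.74 and 13.78, without overlap, at -0.11 (SE 0.05, limma adjusted p = 0.619), and -0.11 without replicate 3. Gpnmb, a glycoprotein that marks lipid-loaded macrophages, read 13.86, 13.78 and 13.88 against 13.92, 13.97 and 13.88, at -0.08 and, without replicate 3, -0.10, while its dimmer probe set had 0.00 with 6 arrays and 0.19 without replicate 3. Lamp1, the most used marker of the lysosomal membrane, had -0.01 (SE 0.05, 95% interval -0.14 to 0.11) with 6 arrays and -0.03 without replicate 3. Lamp2, its relative needed for autophagosome fusion, had 0.17 (SE 0.14) with 6 arrays and 0.02 without replicate 3. The other Lamp2 probe sets had -0.07, -0.02 and 0.16 with 6 arrays and -0.06, -0.01 and -0.01 without replicate 3. Scarb2, the receptor that carries glucocerebrosidase to lysosomes, had -0.10 and -0.23, and Mcoln1, the calcium channel of the lysosome, -0.11 and -0.16, in the same order.

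Vimentin-deficient replicate 3 lay farther from the other vimentin-deficient arrays than those lay from each other. The median distance between a member's value there and the mean of replicates 1 and 2 was 0.17 on the log2 scale (0.13 over all genes), while replicates 1 and 2 differed from each other by a median of 0.07 (0.08 over all genes). It lay above them for 26 members and below for 12, whereas over all genes it lay above for 5737 of 13445. The largest distances upward were those of Ctsh (2.09) and Mitf (0.65), followed by Lamp2 (0.44) and Scarb2 (0.40). Downward they were those of Ctsc (-0.74) and Atp6v0d1 (-0.53), followed by Atp6v1d (-0.27). On replicate 3 the other Lamp2 probe sets stood at distances of -0.03, -0.03 and 0.51, and the other Scarb2 probe set at 0.31. Of the 24 members with several probe sets above the filter, the dimmest of these stood above its own mean of replicates 1 and 2 there for 16 and below for 8. These distances ran from -0.57 for Gpnmb to 2.03 for Ctsh, with 1.27 for Man2b1 and 1.21 for Ctsb. Of the 27 members below the wild-type mean on both other vimentin-deficient arrays, 13 were below it on replicate 3 as well and 14 above. No test was made on this one array.

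Other genes of the pathway were read from 6 further lists. With 6 arrays 0 genes of any of them passed. Among other V-ATPase subunits, Atp6v0d2, the d2 isoform found in osteoclasts and some macrophages, read 11.23, 11.48 and 12.01 in vimentin-deficient and 12.52, 12.56 and 12.53 in wild-type samples. All vimentin-deficient arrays were lower, replicate 3 least. Its log2 fold change was -0.96 (SE 0.18, 1.95-fold lower, limma adjusted p = 0.25) with 6 arrays, and without replicate 3 it fell, at -1.18 (SE 0.08, 2.27-fold, limma adjusted p = 7.44e-05), as it did in all 5 fits without a further array. The other 9 tested subunits did not pass, and the median of the 10 was -0.03 and, without replicate 3, 0.00.

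Other hydrolases and their inhibitors had lower means for 20 of 29 genes with 6 arrays (median -0.12), and for 26 of 29 without replicate 3 (median -0.15), where 60.4% and 55.5% of all genes did. In the second fit 4 fell (1.03% of all genes) and 0 rose. Galc, the galactocerebrosidase, read 10.42, 10.43 and 10.89 against 10.84, 11.09 and 11.06 and fell without replicate 3 (-0.57, SE 0.09, limma adjusted p = 0.009). Pla2g15, the lysosomal phospholipase A2, read 10.67, 10.79 and 11.34 against 11.23, 11.48 and 11.36, and fell in that fit (-0.63, SE 0.09, limma adjusted p = 0.00472). For both, replicate 3 lay among the wild-type arrays. Galns, a sulfatase of keratan sulfate, read 9.61, 9.63 and 9.16 against 10.08, 10.02 and 10.17, and Acp2, the lysosomal acid phosphatase, 10.00, 10.10 and 10.22 against 10.47, 10.39 and 10.59. Both were lower on all 3 vimentin-deficient arrays. Galns had -0.62 (SE 0.14, limma adjusted p = 0.322) with 6 arrays and fell without replicate 3 (-0.47, limma adjusted p = 0.0136), and Acp2 had -0.38 (SE 0.09, limma adjusted p = 0.358) and -0.43 (limma adjusted p = 0.0308). In the 5 fits without a further array, Galc, Galns and Acp2 passed in 2, those without wild-type replicate 1 or 2, and Pla2g15 in 3, with vimentin-deficient replicate 2 besides. With the mean of a gene's probe sets, the limma adjusted p without replicate 3 was 0.0653 for Galc and 0.0574 for Acp2.

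The remaining 4 lists had 0 members past the threshold in either fit. Values are given with 6 arrays and then without replicate 3, where 60.4% and 55.5% of all genes were lower, with medians of -0.02 and -0.01. Other lysosomal membrane proteins had medians of -0.08 and -0.08 (15 and 14 of 19 lower), with Slc17a5, the sialic acid exporter, at -0.33 and -0.31 and Mfsd8 at -0.12 and -0.13. The mannose 6-phosphate and sorting route, which delivers hydrolases, had medians of -0.06 and -0.05 (11 and 12 of 14 lower). Its sorting receptor gene Sort1 read 9.11, 9.17 and 9.05 against 9.41, 9.52 and 9.54, without overlap, at -0.37 (SE 0.07, limma adjusted p = 0.269) and -0.35 (limma adjusted p = 0.0556). Igf2r, the large mannose 6-phosphate receptor, had -0.22 and -0.17. The list of the mTORC1 branch holds activators of mTORC1 as well as its inhibitors, Nprl3 among the latter. The medians of this list were -0.05 and -0.10 (12 and 14 of 19 lower). Rragd was at -0.26 and -0.16 and Nprl3 at -0.13 and -0.12. Autophagy genes had medians of -0.13 and -0.09 (15 and 16 of 21 lower). Gabarapl1, an autophagosome protein gene, read 10.93, 11.12 and 11.22 against 11.27, 11.76 and 11.79 at -0.52 (SE 0.16, limma adjusted p = 0.483) and -0.58 (limma adjusted p = 0.063), and Atg12 had -0.24 and -0.23, both without overlap.

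**Figure D5:**
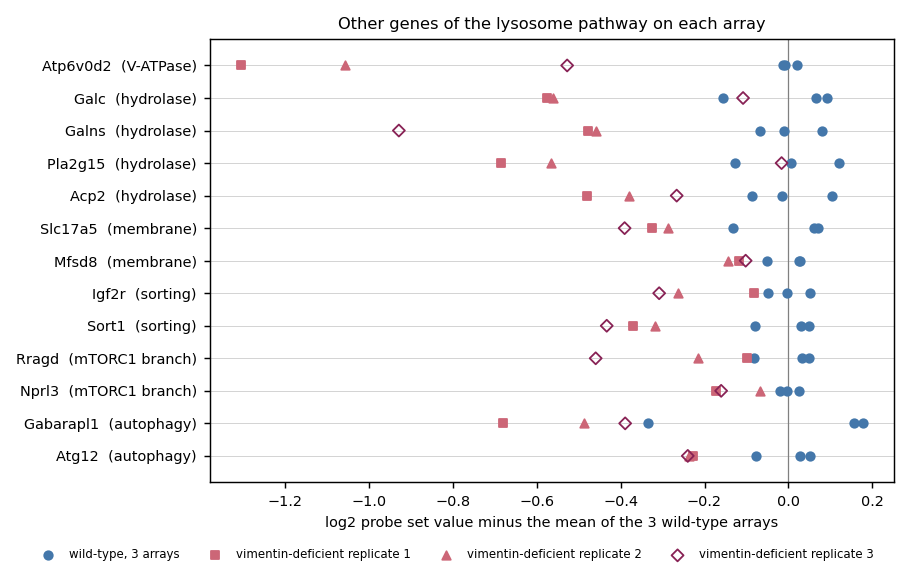
Log2 probe set value of 13 other genes of the lysosome pathway on each array, minus the mean of the 3 wild-type arrays (circles wild-type, filled squares and triangles vimentin-deficient replicates 1 and 2, open diamonds replicate 3). All vimentin-deficient arrays lie left of the wild-type arrays for every gene shown except Galc and Pla2g15, whose diamonds lie among the circles.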

How the data were processed

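Total RNA of 6 macrophage cultures was read on Affymetrix mouse arrays, per the labels. The deposited table holds a log2 value per probe set and array. The authors' summary and normalization are not given in the sources used here. Values run from 5.43 to 14.50, with array medians from 7.23 to 7.25, and were used as deposited; signal over background is unknown. Of 45101 probe sets, 34945 named 1 gene, and symbols were updated by Entrez ID (GRCm38.p6 table). Genes with a mean at or above 6.93, the 40th percentile of probe sets other than controls, were tested. Genotypes were compared with limma 3.58.1 in R 4.3.3 (eBayes with a mean-variance trend), with Benjamini-Hochberg adjustment over all 13445 tested genes at 0.05. The fit was checked on simulated arrays of equal spread, which hold no array like vimentin-deficient replicate 3. Where every probe set was tested by itself, adjustment was over 22996 probe sets. Alternatives changed the normalization, filter, probe set rule, variance model and threshold, added array weights or a replicate block, and left out arrays. Standard errors and 95% intervals use limma's moderated variance. The 3 arrays per genotype limit the precision. P-values measure only the spread between these samples, since the labels do not say what a biological replicate shares.

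Members and lists were chosen with earlier results of these data known. Array values are given for members past the threshold in either fit, for Tfeb, Tfe3 and Mitf, for the 2 smallest p of each role, and for the 4 members farthest off on vimentin-deficient replicate 3. Other members are given by range or log2 fold change. Of other lists, genes past the threshold or else the 2 smallest p are named. Atp6v0b, Ctsb and the marker genes were named after their values were seen.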

Additional observations from a re-analysis of the deposited data

How the results depend on the processing

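The 3 arrays per genotype limit what differences could be seen, and signal over background is unknown. The number of lysosomal members past the threshold was 0 with 6 arrays, also with quantile normalization, median centring, the other filters and probe set rules, no variance trend, array weights, the replicate block and a threshold of 0.1. Without 1 array or 2 it ran from 0 to 9. Without vimentin-deficient replicate 3 it was 3, also with quantile normalization, the mean of probe sets or no filter, and 5 at 0.1, a threshold tried there after seeing the data. Over all genes, 93 passed with array weights, 0 with the replicate block and 0 to 1306 with 1 or 2 arrays left out. Without vimentin-deficient replicate 3, 298 passed with quantile normalization, 265 with the mean of probe sets, 378 without a filter and 565 at 0.1.

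Deviations of same-numbered samples from their group means correlated at 0.43, -0.15 and 0.04 for numbers 1, 2 and 3. Since not every one was over 0.1, the numbers were not taken as pairs. Those of differently numbered samples ran from -0.42 to 0.34. With 3 arrays per genotype such correlations cannot exclude pairs. With the replicate block Vim kept its log2 fold change of -5.89 at a limma adjusted p of 0.062. It ran from -6.36 to -5.13 with arrays left out, with adjusted p of 0.0527, 0.0501 and 0.0766 without wild-type replicate 1, 2 or 3 in turn.

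The median of the members stayed below 0 in every alternative run. Among members given with array values, signs turned for the 6 that follow, and the cause was not tested. Of the other members, Atp6v1c1, Atp6v1d, Ctss, Tpp1 and Gla changed sign without vimentin-deficient replicate 3. Ctsh was at -0.55 with array weights. Without vimentin-deficient replicate 3 it was at -0.66 with quantile normalization, -0.59 with the mean of probe sets and -0.65 without a filter or with every probe set, and it ran from -0.81 to 0.48 with arrays left out. Ctsc was at 0.093 with array weights. Without that replicate it was at 0.16 with quantile normalization, 0.055 with the mean of probe sets and 0.15 without a filter or with every probe set, and it ran from -0.23 to 0.18 with arrays left out. Atp6v0d1 ran from -0.31 to 0.049 and was at 0.0070 without that replicate and with quantile normalization. Gpnmb was at 0.0022 with the most variable probe set and at 0.045 without that replicate and with the mean of probe sets. Tfe3 ran from -0.19 to 0.058 and Mitf from -0.33 to 0.030 with arrays left out.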
